A study of Mus musculus with 51 samples.

Results

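The genes described here are 10 genes of the GDNF and RET signalling pathway at the tips of the branching ureteric bud, taken by name from the 16099 genes of a fetal mouse kidney expression table: Gdnf, Ret, Gfra1, Wnt11, Etv4, Etv5, Spry1, Wnt9b, Sox8 and Sox9. All 10 were present in the table and all passed the filter on low values that left 14426 genes to be tested. The study sequenced poly-A RNA of whole kidneys from wild-type C57BL/6 mouse fetuses, taken every 4 h over 48 h, and its title names the circadian clock and developmental time. Times run from CT0, on embryonic day 18, through CT24, on embryonic day 19, to CT48, on embryonic day 20, by the sample labels. In all, 51 libraries cover 13 time points, 4 for every time but CT20, which has 3. All groups share 1 strain and genotype, with no treatment. The labels call the libraries biological replicates without naming dams or litters, so p-values measure the spread between these samples.

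GDNF is a secreted growth factor made by the mesenchyme around the ureteric bud. It binds the co-receptor GFRA1, and together they activate the receptor tyrosine kinase RET on epithelial cells of the bud. In the mouse kidney this signal starts the outgrowth of the bud and keeps its tips branching, and loss of Gdnf, Ret or Gfra1 leaves many embryos without kidneys. Downstream of RET, the transcription factors ETV4 and ETV5 are required for branching, WNT11 from the tips sustains Gdnf expression, and SPRY1 restrains the signal. SOX8 and SOX9 act in the tips together with RET signalling, and WNT9B, from the stalk of the bud, induces the surrounding progenitors to form nephrons.

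The values are whole numbers that the authors had normalised before deposit, called normalised values below. For nearly every gene the mean over CT28 to CT48 equalled the mean over CT0 to CT24. Over 12274 genes with a mean of at least 100, the log2 difference of these means had an SD of 0.02, while CT36 to CT48 differed from CT28 and CT32 with an SD of 0.35. The 10 genes were as close, with Spry1 the farthest apart at 0.02. A level in CT28 to CT48 therefore cannot be set against one in CT0 to CT24, and no level is compared between these spans. Slopes are compared between them, and the 24 h rhythm was fitted to both with a shift of level between them. CT28 to CT48 is shorter than 24 h, and all its time points differ in clock time. Age and clock time therefore cannot be told apart in its slopes and differences. The libraries of CT28 and CT32 stood apart from all others on the first principal component, at -43.2 to -23.0. Their values enter every result on CT28 to CT48 below. Slopes, slope differences, calls of any difference and counts of the pathway lists are also given without them.

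The upstream sequences of 3 of the genes are shown: Spry1, which rose in both spans, Etv5, whose slope over CT28 to CT48 had the lowest adjusted p after Spry1, and Sox8, the gene with the lowest level and the 1 window with an E-box. Each run gives the 250 bases before a RefSeq transcription start in GRCm38.p6, 5′ to 3′ on the gene's strand. Capitals mark GGAA or its complement TTCC, the core bound by ETS factors such as ETV4 and ETV5, and CACGTG, the E-box bound by clock factors. The windows are chr3:37639697-37639946 on the plus strand for Spry1, chr16:22438369-22438618 on the minus strand for the downstream start of Etv5 and chr17:25570687-25570936 on the minus strand for Sox8.
Spry1: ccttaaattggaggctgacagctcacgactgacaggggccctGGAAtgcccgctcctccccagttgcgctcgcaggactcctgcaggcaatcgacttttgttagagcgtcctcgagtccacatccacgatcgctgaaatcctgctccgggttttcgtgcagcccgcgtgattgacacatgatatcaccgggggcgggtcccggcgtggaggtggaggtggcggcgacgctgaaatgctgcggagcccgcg
Etv5: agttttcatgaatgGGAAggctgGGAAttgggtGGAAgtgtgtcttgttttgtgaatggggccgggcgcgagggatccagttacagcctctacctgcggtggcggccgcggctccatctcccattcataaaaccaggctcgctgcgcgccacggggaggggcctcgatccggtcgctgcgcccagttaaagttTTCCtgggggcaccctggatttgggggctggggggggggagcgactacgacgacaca
Sox8: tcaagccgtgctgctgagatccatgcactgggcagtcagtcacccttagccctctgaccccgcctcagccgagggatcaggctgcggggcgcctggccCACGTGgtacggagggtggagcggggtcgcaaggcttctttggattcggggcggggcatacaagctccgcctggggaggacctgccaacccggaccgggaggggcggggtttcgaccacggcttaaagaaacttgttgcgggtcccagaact
The Etv5 window shown held 4 ETS cores and the window of its other start 0, and the Spry1 window held 1, while the Sox8 window held no ETS core and 1 E-box. RefSeq promoters were matched for 7 of the 10 genes, Gdnf, Gfra1, Wnt11, Etv5, Spry1, Wnt9b and Sox8, with 10 windows in all. An ETS core stood in 7 of these 10 windows, against 93.4% of all 32851 promoter windows of the same length, both strands searched. The E-box stood in 1 of 10, against 6.02% of all windows. The longer ETS motif CCGGAAGT stood in 0 of 10, against 2.88% of all windows. Such matches describe these letters and are not evidence of binding.

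Per kilobase of exon, Spry1 had the highest mean level over the 51 libraries, 1559 ± 225 normalised values per kilobase (SD). Etv5 at 716 ± 73.7 and Gfra1 at 702 ± 69.1 followed. Next came Etv4 at 594 ± 57.9, Wnt11 at 439 ± 35.7 and Gdnf at 390 ± 29.4. Wnt9b at 305 ± 33.7, Ret at 239 ± 21.5 and Sox9 at 167 ± 18.3 were lower. Sox8 was lowest at 34.4 ± 6.16. In this order Etv5 and Gfra1, Gfra1 and Etv4, and Wnt11 and Gdnf differed by less than their summed SDs, and the other neighbours by more. Ret was lower per kilobase than Gfra1, Etv4, Etv5, Wnt11 and Spry1. In a whole kidney a level cannot separate fewer tip cells from less RNA per cell.

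Over all libraries Gdnf ranged from 1226 to 1701 normalised values, Ret from 1329 to 1945, Spry1 from 3288 to 6271 and Sox8 from 66 to 170. In CT0 to CT24, 8 of the 10 genes had no slope past the test. At CT28 and CT32 the receptor, co-receptor, ETV, Spry1 and Sox9 genes had their lowest means of CT28 to CT48. From CT36 their means were higher, with the highest at CT44 for Ret, Gfra1, Etv4, Etv5 and Sox9 and at CT48 for Spry1. Wnt11 had its lowest means of that span at CT28 and CT32 too, but its differences did not pass the tests below. Gdnf and Wnt9b had their lowest means of that span at CT40 and CT48.

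**Figure D1:**
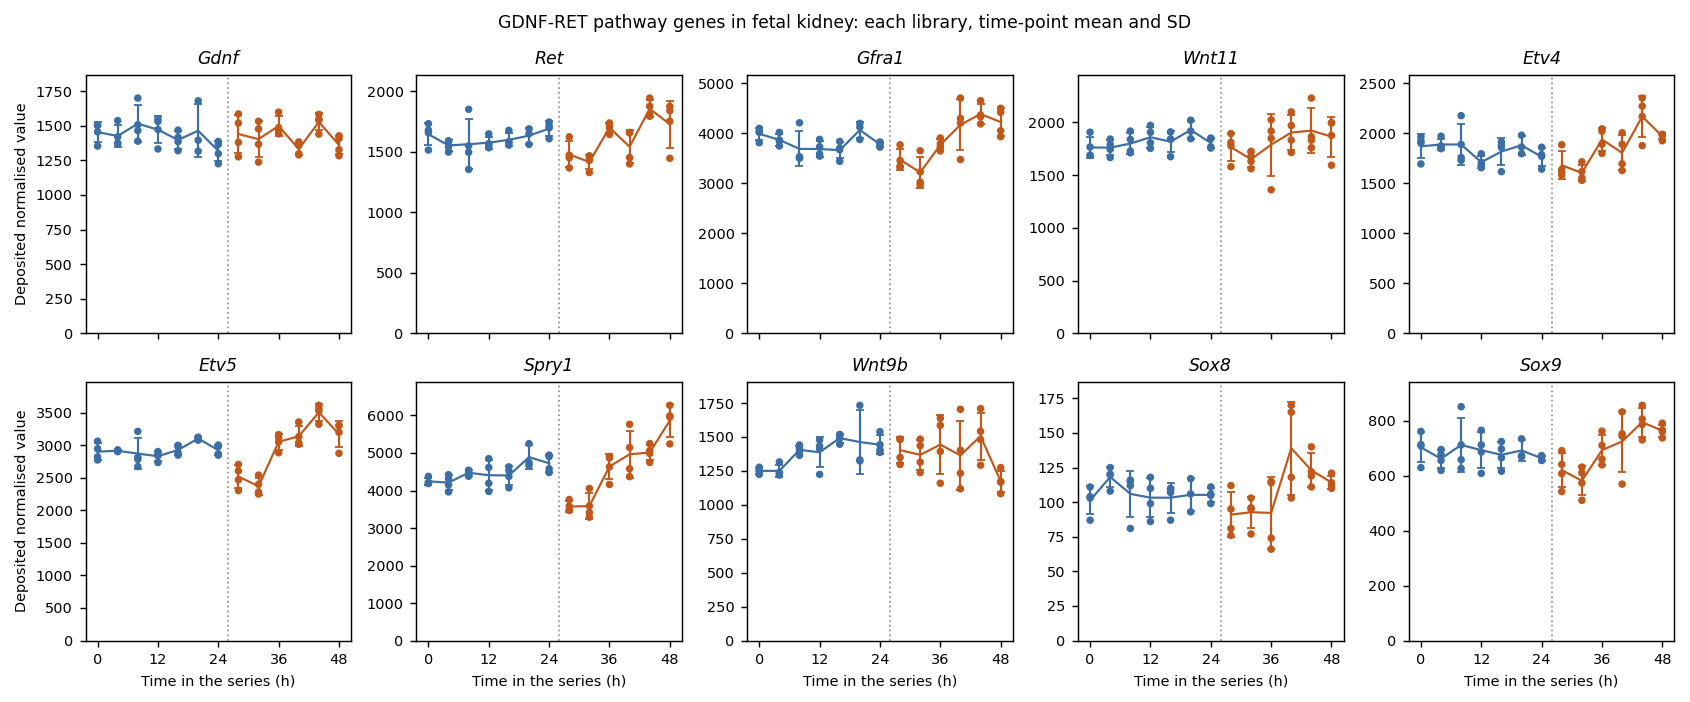
Normalised values (vertical axis, linear, 1 panel a gene) of the 10 genes in each of the 51 libraries against the hour of the series, with points for libraries and lines for the time-point means with SD bars. Ret, Gfra1, Etv4, Etv5, Spry1 and Sox9 sit low at CT28 and CT32 and higher from CT36, while Gdnf shows no such step.

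The ligand gene Gdnf passed none of the tests in the main fits. It had 1387, 1226, 1366 and 1299 normalised values at CT24, against 1354, 1502, 1457 and 1505 at CT0. The groups overlapped, and the log2 difference of -0.14 ± 0.07 (SE) did not pass the test (adjusted p = 0.112, limma). At CT36 Gdnf had 1442, 1487, 1469 and 1599, against 1367, 1238, 1533 and 1478 at CT32, and at CT48 it had 1284, 1327, 1408 and 1428, against 1520, 1276, 1381 and 1586 at CT28. Both pairs overlapped, with log2 differences of 0.10 ± 0.07 (adjusted p = 0.311, limma) and -0.08 ± 0.07 (adjusted p = 0.381, limma). A straight line gave -0.03 ± 0.08 log2 units per 24 h in CT28 to CT48 (adjusted p = 0.772, limma) and -0.11 ± 0.06 in CT0 to CT24 (adjusted p = 0.162, limma). Replicate 1 of CT0 was the lowest of its time point, and without the libraries numbered 1 the difference between CT24 and CT0 was -0.20 (adjusted p = 0.0164, limma). The line over CT0 to CT24 was then -0.18 (adjusted p = 0.0204, limma). Any difference among time points passed for Gdnf in 1 of 10 alternatives in CT0 to CT24 and in 2 of 11 in CT28 to CT48.

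Ret, the receptor, and Gfra1, its co-receptor, were both higher at CT36 than at CT32. Ret had 1644, 1717, 1699 and 1739 normalised values at CT36, against 1439, 1429, 1329 and 1468 at CT32, and the groups did not overlap. The log2 difference was 0.26 ± 0.07 (adjusted p = 0.00701, limma), lost without the libraries numbered 3 (adjusted p = 0.0717, limma). Gfra1 had 3731, 3650, 3792 and 3910 at CT36, against 3025, 3653, 2971 and 3230 at CT32. Replicate 2 of CT32 lay inside the CT36 range, and the difference was 0.23 ± 0.07 (adjusted p = 0.0135, limma). Without replicate 3 of CT32 the Gfra1 difference was 0.20 (adjusted p = 0.061, limma), and it was also not called without the libraries numbered 3 (0.136) or 4 (0.0673).

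At CT48 Ret had 1841, 1447, 1876 and 1753, against 1367, 1451, 1473 and 1624 at CT28. Replicate 2 of CT48 lay below 3 of the 4 libraries of CT28, and the difference was 0.22 ± 0.07 (adjusted p = 0.0139, limma). It lost the call without replicate 1 of CT48 (adjusted p = 0.0531, limma), replicate 3 of CT48 (0.0626) or replicate 1 of CT28 (0.0574). Gfra1 had 4503, 3935, 4421 and 4054 at CT48, against 3459, 3343, 3324 and 3772 at CT28, with no overlap and a difference of 0.28 ± 0.07 (adjusted p = 0.00162, limma). Over CT28 to CT48 as a line, Ret rose by 0.37 ± 0.09 log2 units per 24 h (adjusted p = 0.00122, limma) and Gfra1 by 0.50 ± 0.09 (adjusted p = 1.67e-05, limma). With time-point means as the unit, the Ret rise did not pass (adjusted p = 0.0637, limma).

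In CT0 to CT24 neither receptor gene passed the test of a line. Ret had 1716, 1608, 1747 and 1698 normalised values at CT24, against 1515, 1733, 1658 and 1679 at CT0, with overlap and a log2 difference of 0.04 ± 0.06 (adjusted p = 0.644, limma). Gfra1 had 3800, 3725, 3830 and 3774 at CT24, against 3814, 4037, 4102 and 4022 at CT0, again with overlap, and -0.08 ± 0.05 (adjusted p = 0.21, limma). Gfra1 still differed among the 7 time points (adjusted p = 0.0363, limma F test), with means from 3665 at CT16 to 4068 at CT20. That call was lost without the libraries numbered 1, 2 or 3 (adjusted p = 0.226, 0.189 and 0.275, limma).

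The ETS factors Etv4 and Etv5 were also higher at CT36 than at CT32. Etv4 had 2045, 1891, 1799 and 2021 normalised values at CT36, against 1530, 1617, 1554 and 1715 at CT32. Etv5 had 2885, 3117, 3052 and 3164 at CT36, against 2251, 2542, 2399 and 2283 at CT32. Neither gene's groups overlapped, with log2 differences of 0.27 ± 0.07 for Etv4 (adjusted p = 0.00516, limma) and 0.37 ± 0.06 for Etv5 (adjusted p = 3.04e-05, limma). At CT48 Etv4 had 1980, 1989, 1990 and 1926, against 1583, 1614, 1639 and 1886 at CT28. Etv5 had 3308, 3199, 3300 and 2877 at CT48, against 2304, 2607, 2468 and 2706 at CT28. Both pairs were again apart, by 0.23 ± 0.07 (adjusted p = 0.00914, limma) and 0.33 ± 0.06 (adjusted p = 2.93e-05, limma). Between CT24 and CT0 Etv4 differed by -0.08 ± 0.06 (adjusted p = 0.326, limma) and Etv5 by 0.01 ± 0.04 (adjusted p = 0.853, limma), with overlap in both. The Etv4 calls were lost without the libraries numbered 1 for CT36 against CT32 (adjusted p = 0.0517, limma), and 1 (0.0588), 2 (0.0576) or 3 (0.052) for CT48 against CT28.

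Spry1, the feedback inhibitor that damps RET signalling, had the largest slope of the 10 genes. It had 5956, 6271, 5989 and 5242 normalised values at CT48, against 3585, 3472, 3469 and 3760 at CT28. Every CT48 library lay above every CT28 library, and the log2 difference was 0.71 ± 0.07 (adjusted p = 8.35e-09, limma). At CT36 it had 4162, 4866, 4629 and 4908, against 3585, 4055, 3288 and 3412 at CT32, also without overlap and with a difference of 0.37 ± 0.07 (adjusted p = 0.000312, limma). Its line over CT28 to CT48 rose by 0.88 ± 0.09 per 24 h (adjusted p = 3.66e-09, limma).

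Spry1 was also higher at CT24, with 4581, 4905, 4943 and 4479 normalised values, against 4202, 4216, 4185 and 4376 at CT0. The groups did not overlap, and the log2 difference was 0.15 ± 0.05 (adjusted p = 0.0218, limma). The call was lost without replicate 2 of CT24 (adjusted p = 0.0761, limma), replicate 3 of CT24 (0.0803) or replicate 3 of CT0 (0.0545). The line over CT0 to CT24 rose by 0.18 ± 0.04 per 24 h (adjusted p = 0.00276, limma). Both calls were lost where all 51 libraries shared 1 fit (adjusted p = 0.133 for CT24 against CT0 and 0.0668 for the line, limma). With time-point means as the unit, the line did not pass either (adjusted p = 0.0505, limma).

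Wnt11, the tip signal that sustains Gdnf in the mesenchyme, did not pass any of these tests. It had 1593, 1876, 1997 and 1993 normalised values at CT48, against 1893, 1777, 1810 and 1579 at CT28. At CT36 it had 2024, 1917, 1849 and 1360, against 1630, 1560, 1683 and 1725 at CT32. The groups overlapped in both pairs, and the log2 differences were 0.08 ± 0.10 (adjusted p = 0.53, limma) and 0.10 ± 0.10 (adjusted p = 0.457, limma). Without replicate 4 of CT36, its lowest library, the difference from CT32 was 0.23 (adjusted p = 0.0463, limma). The line over CT28 to CT48 was 0.19 ± 0.10 per 24 h (adjusted p = 0.103, limma), which passed without the libraries numbered 1, at 0.30 (adjusted p = 0.0286, limma).

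Sox9, needed together with Sox8 for branching in the mouse, had 738, 792, 767 and 761 normalised values at CT48, against 692, 543, 608 and 642 at CT28. The groups did not overlap and the log2 difference was 0.30 ± 0.10 (adjusted p = 0.0128, limma), lost without replicate 2 of CT28 (adjusted p = 0.0632, limma). At CT36 it had 661, 763, 711 and 640, against 511, 632, 574 and 611 at CT32. These groups did not overlap either, but the difference of 0.25 ± 0.10 did not pass (adjusted p = 0.052, limma). It passed without replicate 4 of CT36, at 0.29 (adjusted p = 0.0416, limma), or replicate 2 of CT32, at 0.30 (adjusted p = 0.0361, limma).

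Sox8 was much lower and noisier. It averaged 114.25 ± 4.79 normalised values at CT48, against 91.0 ± 16.1 at CT28 (SD, n = 4 each). Libraries of CT48 ran from 110 to 121 and those of CT28 started at 76, with replicate 3 of CT28 inside the CT48 range, and the log2 difference was 0.34 ± 0.21 (adjusted p = 0.168, limma). At CT36 it averaged 92.3 ± 25.9, against 92.8 ± 11.1 at CT32 (SD, n = 4 each), and the lowest library of all, 66, was at CT36. The groups overlapped, with -0.04 ± 0.21 (adjusted p = 0.895, limma). Sox8 rose along the line over CT28 to CT48 by 0.60 ± 0.22 per 24 h (adjusted p = 0.0211, limma), lost without the libraries numbered 1 (adjusted p = 0.0889, limma) or 4 (0.0638), or without CT28 (0.0886), CT32 (0.0607) or CT44 (0.068).

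Wnt9b, the stalk signal to nephron progenitors, was higher at CT24 than at CT0 and lower at CT48 than at CT28. It had 1539, 1386, 1405 and 1443 normalised values at CT24, against 1251, 1277, 1248 and 1224 at CT0. The groups did not overlap, and the log2 difference was 0.21 ± 0.06 (adjusted p = 0.0106, limma). Its line over CT0 to CT24 rose by 0.24 ± 0.05 per 24 h (adjusted p = 0.00103, limma). The difference lost its call without the libraries numbered 3 (adjusted p = 0.0515, limma) or 4 (0.0567). In 1 fit of all 51 libraries the adjusted p was 0.157 for the difference and 0.067 for the line.

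At CT48 Wnt9b had 1167, 1082, 1274 and 1171 normalised values, against 1297, 1349, 1485 and 1481 at CT28. Every CT48 library lay below every CT28 library, with a log2 difference of -0.26 ± 0.11 (adjusted p = 0.0485, limma). The adjusted p lay between 0.0127 and 0.127 over the alternatives. It was above 0.05 without replicate 1 of CT48 (0.0809), replicate 2 of CT48 (0.127), replicate 4 of CT48 (0.0754), or replicate 2 (0.06), 3 (0.114) or 4 (0.111) of CT28. The line over CT28 to CT48 was -0.17 ± 0.13 (adjusted p = 0.258, limma), and without CT48 it was 0.11, so the direction rested on CT48. Without CT44 the line was -0.29 and passed (adjusted p = 0.0476, limma).

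Counted together, CT24 against CT0 gave 2 of the 10 genes higher and 0 lower. Over all tested genes, 14.3% were higher and 12.2% lower, 26.6% in all. The median log2 difference was 0.02 for the 10 genes and 0.00 for all genes. For CT36 against CT32, 5 were higher and 0 lower, against 15.7% and 19.1% of all genes, 34.8% in all. The median was 0.24 for the 10 genes and -0.01 for all genes. For CT48 against CT28, 6 were higher and 1 lower, against 25.7% and 28.1%, 53.9% in all, and the median was 0.26 for the 10 genes and -0.01 for all genes. The groups did not overlap for 2, 5 and 6 of the 10 genes in these 3 comparisons, against 28%, 29.6% and 48.7% of all genes.

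Along a straight line, 7 of the 10 genes rose and 0 fell over CT28 to CT48, against 28.7% and 30.7% of all genes, 59.3% in all. The median slope was 0.45 log2 units per 24 h for the 10 genes and -0.02 for all genes. Besides those given above, Etv4 rose by 0.40 ± 0.09 (adjusted p = 0.000462, limma), Etv5 by 0.58 ± 0.09 (adjusted p = 3.05e-06, limma) and Sox9 by 0.50 ± 0.11 (adjusted p = 0.000249, limma). Most of these calls were lost without CT28 and CT32, but that fit has wider SEs, 0.18 in place of 0.09 for Ret. Each of the 7 slopes was also smaller in that fit, 0.19 in place of 0.58 for Etv5. What the smaller slopes and the lost precision each took from the calls was not tested. Without those 8 libraries the line passed for Spry1 alone, at 0.62 (adjusted p = 0.018, limma), while 7.44% of all genes passed. Etv5 then had 0.19 (adjusted p = 0.386, limma), Gfra1 0.34 (0.152), Ret 0.19 (0.531), Etv4 0.20 (0.49), Sox9 0.34 (0.282) and Sox8 0.54 (0.479), all still above 0.

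Over CT0 to CT24, 2 of the 10 genes rose and 0 fell, against 12.9% and 10% of all genes, 22.9% in all. Those 2 were Spry1 and Wnt9b, and the median slope was 0.01 for the 10 genes and -0.00 for all genes. The other 8 slopes lay between -0.11 for Gdnf and 0.08 for Wnt11. Any difference among the time points was called for 7 of the 10 genes in CT28 to CT48, against 64.7% of all genes, and for 3 in CT0 to CT24, against 43.5%. The 7 were Ret, Gfra1, Etv4, Etv5, Spry1, Sox8 and Sox9, and the 3 were Gfra1, Spry1 and Wnt9b. The first share lies near the background and the second below it. In CT36 to CT48 alone, 2 of the 10 and 3177 of the 14426 genes were called, the 2 being Spry1 (adjusted p = 0.0167, limma) and Gdnf (0.0482). Ret (0.074), Gfra1 (0.11), Etv4 (0.0717), Etv5 (0.0538), Sox8 (0.146) and Sox9 (0.359) were then not called. The CT0 to CT24 call of Spry1 was lost without the libraries numbered 1 (adjusted p = 0.1, limma), 2 (0.0529) or 3 (0.0932), and the CT28 to CT48 call of Sox8 without those numbered 1 (0.168), 2 (0.204) or 3 (0.0978).

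**Figure D2:**
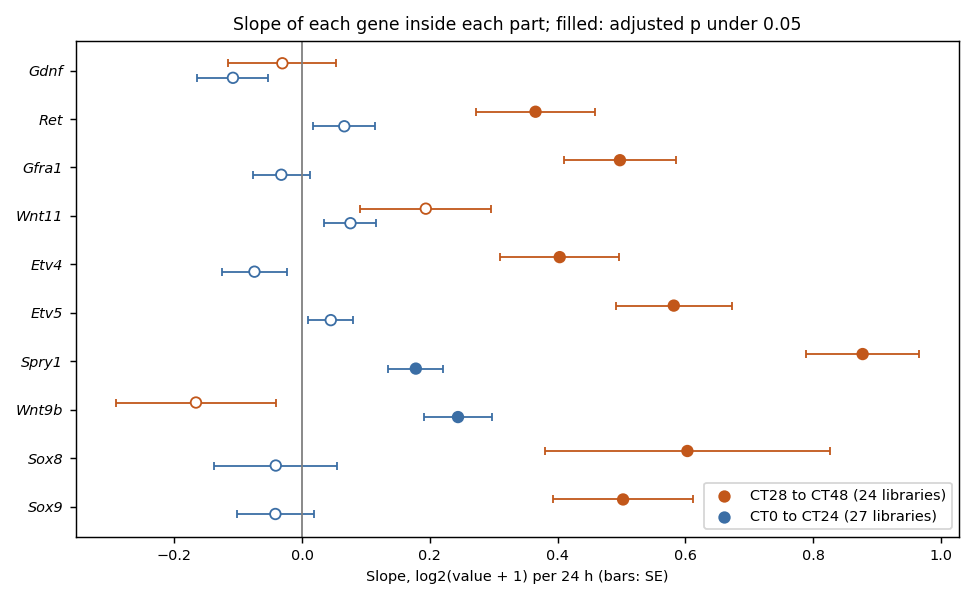
Slope of each of the 10 genes in log2 units per 24 h (horizontal axis) over CT28 to CT48 and over CT0 to CT24, with SE as bars and filled points for slopes past the threshold. All but Gdnf and Wnt9b lie right of 0 over CT28 to CT48, with Spry1 farthest at 0.88.

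The slopes of the later and the earlier span were compared in 1 model over all 51 libraries. The slope was higher in CT28 to CT48 than in CT0 to CT24 for 7 of the 10 genes and lower for 1, against 23.3% and 28% of all genes, 51.4% in all. The difference was 0.70 ± 0.11 for Spry1 (adjusted p = 2.25e-07, limma), 0.64 ± 0.24 for Sox8 (adjusted p = 0.0213, limma), 0.54 ± 0.14 for Sox9 (adjusted p = 0.000842, limma), 0.54 ± 0.10 for Etv5 (adjusted p = 5e-06, limma) and 0.53 ± 0.11 for Gfra1 (adjusted p = 4.37e-05, limma). For Wnt9b it was -0.41 ± 0.14 (adjusted p = 0.0113, limma). For Gdnf it was 0.08 ± 0.12 (adjusted p = 0.621, limma) and for Wnt11 0.12 ± 0.11 (adjusted p = 0.373, limma). Without CT28 and CT32 none of the 10 passed in this limma model (3 at an unadjusted p under 0.05), with 0.44 for Spry1 (adjusted p = 0.139, limma). The Ret difference of 0.30 ± 0.11 (adjusted p = 0.0253, limma) was lost without the libraries numbered 1 (0.0975) or 3 (0.108). Over 12 alternatives the Sox8 call was lost in 5 and the Ret call in 4.

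**Figure D3:**
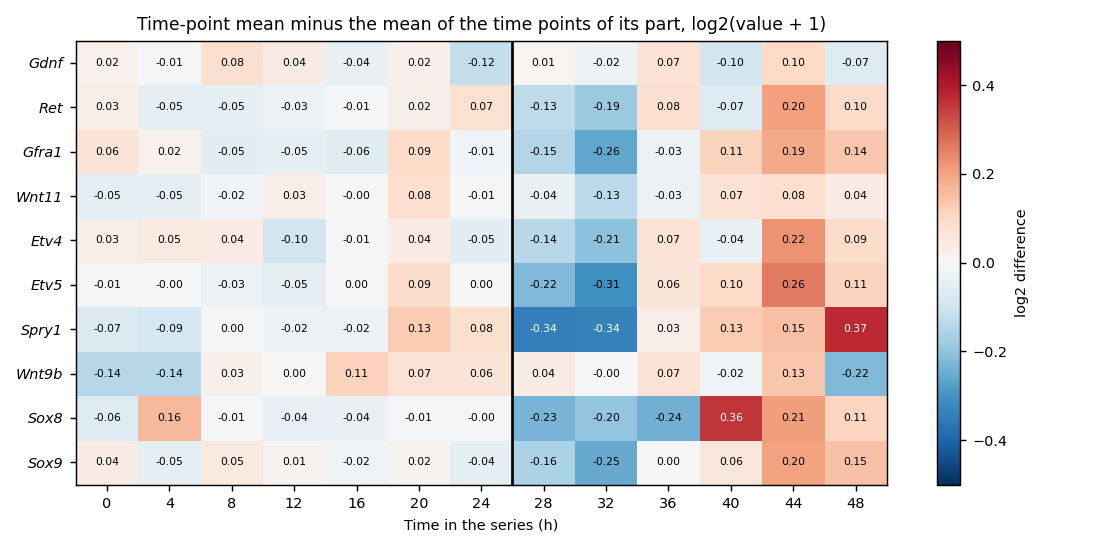
Mean log2(value + 1) of each of the 10 genes at each of the 13 time points, centred on the gene's mean within CT0 to CT24 or CT28 to CT48, with the colour scale in log2 units. CT28 and CT32 are the lowest columns for Ret, Gfra1, Etv4, Etv5, Spry1 and Sox9.

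The 24 h rhythm had a median amplitude of 0.04 log2 units in the 10 genes, against 0.05 in all genes. A 24 h cosine fitted to all 51 libraries passed for 1 of the 10, against 20.2% of all genes. That gene was Gfra1, with an amplitude of 0.09 ± 0.02 log2 units and a fitted peak at 21 h (adjusted p = 0.00517, limma). The call was lost without the libraries numbered 2 (adjusted p = 0.0633, limma) or 3 (0.0715), or with time-point means as the unit (0.923). The cosine model has 1 line for both spans, while the Gfra1 slope differed between them by 0.53. Its amplitude can therefore hold part of that difference. The other amplitudes lay between 0.03 and 0.07, the highest being Etv5 at 0.07 with a peak at 19.6 h (adjusted p = 0.0585, limma). Over 12 alternatives Etv5 passed in 3 (lowest adjusted p = 0.011, limma), with amplitudes of 0.04 to 0.13. Ret and Wnt9b passed in 1 each.

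In the authors' deposited table of rhythm tests, 5 of the 10 genes had a combined q-value under 0.05, against 41.3% of all 16099 genes. The q-values in the authors' deposited table were 7.81e-07 for Etv5, 8.79e-07 for Spry1, 2.09e-06 for Gfra1, 0.00165 for Ret and 0.0164 for Sox9. The periods in the authors' deposited table were 24.3 h for Etv5, 27.9 h for Spry1, 23.6 h for Gfra1, 24.4 h for Ret and 28 h for Sox9, within a table range of 20 to 28 h. Relative amplitudes in the authors' deposited table were 11.1% for Spry1, 8.78% for Gfra1, 6.19% for Etv5, 6.13% for Ret and 0.0772% for Sox9. Etv4 and Gdnf had q-values of 0.159 and 1 in the authors' deposited table. By the Lomb-Scargle test of the authors' deposited table, Ret (q = 0.213) and Sox9 (q = 0.431) were not under 0.05, while Etv5, Spry1 and Gfra1 were. The cosine model also fits a trend with time and a shift of level after CT24. Whether the authors' tests held such terms was not given in the sources used here.

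Genes upstream, beside and downstream of RET were described from lists chosen by textbook role. The counts over CT28 to CT48 below stand against 28.7% of all genes rising and 30.7% falling, 59.3% in all, and a median of -0.02. None of the lists was tested against all genes. Among 7 other feedback inhibitors of receptor tyrosine kinases, 5 rose and 1 fell over CT28 to CT48, with a median slope of 0.42 log2 units per 24 h. Dusp4, a phosphatase of MAP kinases, rose by 0.72 ± 0.13 (adjusted p = 1.78e-05, limma). Spry2 rose by 0.65 ± 0.09 (adjusted p = 1.03e-06, limma), Spred3 by 0.46 ± 0.19 (adjusted p = 0.0335, limma) and Spry4 by 0.42 ± 0.10 (adjusted p = 0.000631, limma). Dusp6, the ERK phosphatase and itself an ERK target, fell by 0.29 ± 0.12 (adjusted p = 0.0436, limma) and is named after its value was seen. In CT36 to CT48 alone, 2 of the 7 rose and 0 fell, Spry2 by 0.62 (adjusted p = 0.0454, limma) and Spred3 by 1.24 (adjusted p = 0.0177, limma).

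Of 8 other tip genes reported downstream of RET, 4 rose and 1 fell over CT28 to CT48, 5 called in all and near the 59.3% of all genes, with a median of 0.21. Etv1, an ETS factor related to Etv4 and Etv5, rose by 0.82 ± 0.12 (adjusted p = 8.6e-07, limma). The matrix protease Mmp14 rose by 0.40 ± 0.07 (adjusted p = 7.11e-06, limma) and the kinesin Kif26b by 0.40 ± 0.09 (adjusted p = 0.000315, limma). Cxcr4, a chemokine receptor, fell by 0.35 ± 0.10 (adjusted p = 0.0042, limma). In CT24 against CT0, 3 were higher and 1 lower, against 14.3% and 12.2% of all genes, 26.6% in all. Cxcr4 was higher by 0.31 ± 0.05 (adjusted p = 5.94e-05, limma), Npnt, a ligand of integrin alpha 8, by 0.24 ± 0.04 (adjusted p = 6.21e-05, limma) and the HGF receptor gene Met by 0.14 ± 0.03 (adjusted p = 0.00219, limma), while Myb was lower, at -0.22 ± 0.08 (adjusted p = 0.038, limma). With CT28 and CT32 left out, Etv1 still rose by 0.82 (adjusted p = 0.0163, limma) and Mmp14 by 0.44 (adjusted p = 0.036, limma), 2 of the 8 in all with 0 lower.

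Of 14 adaptors and transducers of RET, 7 rose and 2 fell over CT28 to CT48, again near the 59.3% of all genes, with a median of 0.18. Sos2, a RAS exchange factor, rose by 0.77 ± 0.10 (adjusted p = 1.35e-07, limma), and the docking protein genes Frs2 and Gab2 rose by 0.70 ± 0.08 (adjusted p = 1.94e-08, limma) and 0.66 ± 0.09 (adjusted p = 2.95e-07, limma). Grb10, an adaptor that inhibits insulin and growth factor receptors, fell by 0.55 ± 0.07 (adjusted p = 2.64e-07, limma), and it was also lower at CT24 than at CT0, at -0.22 ± 0.04 (adjusted p = 0.000104, limma). In the 4 later time points alone, Frs2 at 0.84 (adjusted p = 0.00509, limma), Gab2 at 0.67 (0.01) and Sos2 at 0.55 (0.0465) rose and Dok4 fell by 0.53 (0.0284).

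Of 5 tested other ligands and co-receptors of the family, 0 rose and 3 fell over CT28 to CT48, against 28.7% and 30.7% of all genes, with a median of -0.98. Gfra2, the neurturin co-receptor, fell by 0.99 ± 0.21 (adjusted p = 0.000156, limma), Artn, the gene of the ligand artemin, by 0.98 ± 0.35 (adjusted p = 0.0182, limma) and Gfra4, the persephin co-receptor, by 0.78 ± 0.20 (adjusted p = 0.00159, limma). Pspn, the persephin gene, had a mean of 9.75 and was not tested. Artn and Gfra2 were low, with means of 66.0 and 280.4 normalised values, against 3843 for Gfra1. With CT28 and CT32 left out, 0 of the 5 passed in limma (with p unadjusted, 0 under 0.05) and the median was 0.15.

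Among 14 tested regulators of Gdnf expression or range, 6 rose and 3 fell over CT28 to CT48, also near the 59.3% of all genes, with a median of 0.25. Grem1, the BMP antagonist that permits branching, rose by 1.13 ± 0.43 (adjusted p = 0.0253, limma) at a low mean of 41.0 normalised values. Foxc1, which limits the Gdnf domain, rose by 0.63 ± 0.10 (adjusted p = 2.14e-06, limma), and Itga8, an integrin that sustains Gdnf, rose by 0.56 ± 0.10 (adjusted p = 1.54e-05, limma). Hoxd11, a HOX11 paralogue upstream of Gdnf, fell by 0.52 ± 0.07 (adjusted p = 9.32e-08, limma), and without CT28 and CT32 it alone of the list passed, at -0.54 (adjusted p = 0.00598, limma). In CT24 against CT0, 2 were higher and 3 lower, against 14.3% and 12.2% of all genes, 26.6% in all. Eya1, a coactivator needed for Gdnf, was lower at CT24, at -0.45 ± 0.05 (adjusted p = 1.37e-07, limma) and Itga8 higher by 0.23 ± 0.03 (adjusted p = 1.01e-05, limma).

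In the wider ureteric epithelium, of 9 transcription factors, 6 rose and 2 fell over CT28 to CT48, with Pax8 at 0.54 ± 0.08 (adjusted p = 9.66e-07, limma) and Hoxb7, whose promoter is widely used to mark the ureteric bud, at -0.46 ± 0.07 (adjusted p = 5.53e-06, limma). Of 7 FGF ligands and receptors of branching, 2 rose and 0 fell, below the 59.3% of all genes, Fgfr1 by 0.39 ± 0.07 (adjusted p = 3.42e-05, limma) and Fgfr2 by 0.17 ± 0.07 (adjusted p = 0.0471, limma). Of 14 stalk and collecting duct genes, 7 rose and 3 fell, with a median of 0.37. Calb1, a calcium-binding protein of the duct, rose by 1.84 ± 0.30 (adjusted p = 1.42e-05, limma) and the water channel Aqp3 by 0.87 ± 0.11 (adjusted p = 1.89e-07, limma). Without CT28 and CT32 none of these factor or FGF genes passed in limma (with p unadjusted, 3 and 0 under 0.05), and of the duct genes Avpr2 fell by 1.44 (adjusted p = 0.0174, limma). The median of the 10 pathway genes, 0.45, lay beside 0.28 for the factors, 0.17 for the FGF list and 0.37 for the duct list, which were not tested against each other.

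Of 10 genes of the nephron progenitors, which the tip signals act on, 1 rose and 6 fell over CT28 to CT48, against 28.7% and 30.7% of all genes, with a median of -0.47. Their summed level overlapped, at 19428 to 21042 at CT48, against 20519 to 21270 at CT28. In that sum Itga8, the highest of the list with a mean of 6477, weighed most. Crym fell by 1.08 ± 0.16 (adjusted p = 1.12e-06, limma), Cited1 by 0.78 ± 0.10 (adjusted p = 1.5e-07, limma) and Six2, which keeps progenitors undifferentiated, by 0.57 ± 0.08 (adjusted p = 8.02e-07, limma), while Itga8 was the gene that rose. Of 9 early nephron genes that respond to WNT9B, 3 rose and 1 fell, led by Bmp2 at 0.60 ± 0.14 (adjusted p = 0.000519, limma). Of 8 cell division genes, 0 rose and 8 fell, with a median of -0.84, led by the mitotic kinase gene Bub1 at -1.12 ± 0.15 (adjusted p = 4.74e-07, limma). In CT24 against CT0 all 8 were lower as well, against 12.2% of all genes. Without CT28 and CT32, Hoxd11 alone of the progenitor list fell, and 0 of the early nephron and 0 of the cell division genes passed in limma (with p unadjusted, 3 and 1 under 0.05), where the division median was -0.31.

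**Figure D4:**
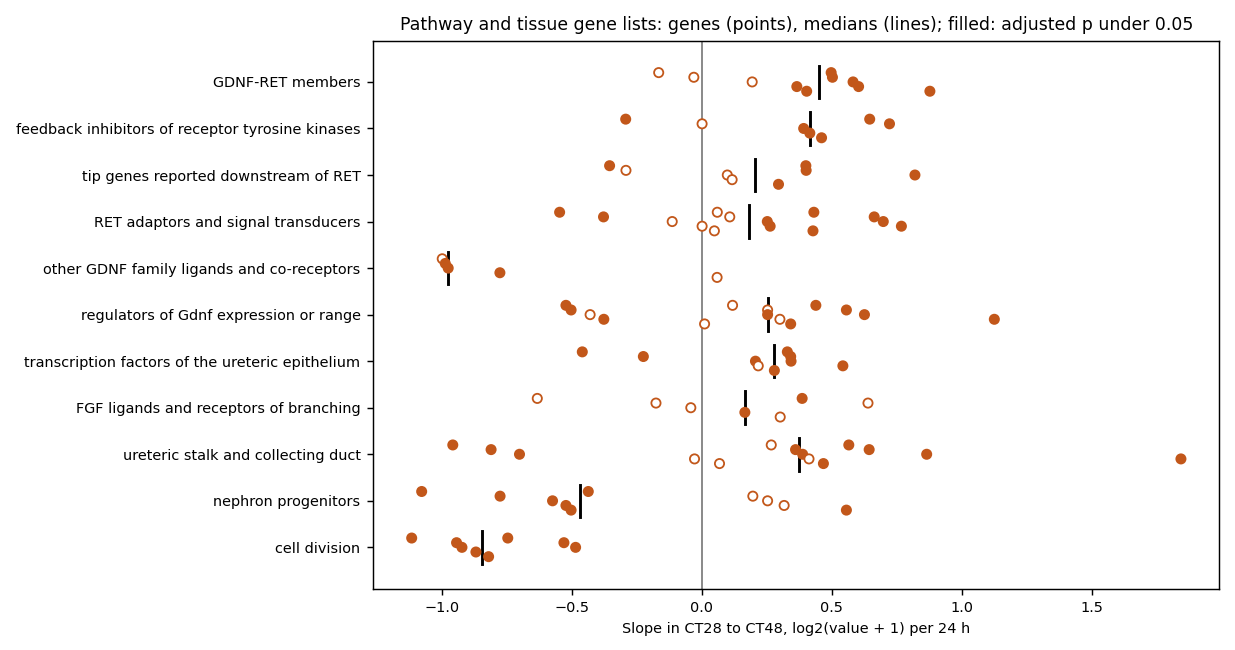
Slopes in log2 units per 24 h over CT28 to CT48 of every tested gene of the pathway lists, with 1 point a gene and the median of each list as a bar. The 10 pathway genes have a median of 0.45, the other family ligands and co-receptors -0.98 and the cell division genes -0.84.

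Other tissue could carry some of these genes, since Ret is also a gene of autonomic neurons and Sox8 and Sox9 of glia. Of 9 genes of autonomic neurons and chromaffin cells, 5 had means under 10, with Th at 6.69, Hand2 at 5.04 and Dbh at 7.84 normalised values, while Ddc at 450.2, Elavl4 at 256 and Stmn2 at 199 were higher. Their summed level was 969 to 1070 at CT48, against 768 to 1143 at CT28, and no gene was at 0 in every library of either group. Of 7 nerve glia genes, 1 had a mean under 10, and their sum was 2307 to 3050 at CT48, against 1534 to 1612 at CT28. Most of that sum was Erbb3, with a mean of 1758, and by the test 2 of the list were higher at CT48 than at CT28 and 1 lower, with a median of -0.01. Sox10, which defines these glia, averaged 29.9. The 6 liver genes summed to 3312 to 4410 at CT48, against 1735 to 1988 at CT28, and the 14 duct genes to 68372 to 81540, against 50204 to 53685. Most of the liver sum was Ttr, with a mean of 2099, and by the test 3 of the 6 were higher at CT48 and 0 lower. The glia and liver counts stand against 25.7% of all genes higher and 28.1% lower, 53.9% in all, and lie near that share. The 6 adrenal cortex genes, 3 of them with means under 10, summed to a median of 228 and at most 250 at CT48, against a median of 152 and at most 671 at CT28, and the 7 skeletal muscle genes to 265 to 442, against 596 to 844. The part of these cells in the results above was not tested.

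Kidney segments were described by the same sums. The 5 podocyte genes summed to 35013 to 38986 at CT48, against 30813 to 34267 at CT28. The 6 proximal tubule genes summed to 97581 to 125106 at CT48, against 84764 to 107203 at CT28, with overlap, and the 5 genes of the thick ascending limb and distal tubule to 36093 to 48756, against 30427 to 35086. Along the line over CT28 to CT48, 2 podocyte genes rose and 2 fell (median -0.09), 0 proximal tubule genes rose and 1 fell (median -0.33), and 2 genes of the limb and distal tubule rose and 1 fell (median 0.26). The 8 cell division genes summed to 27935 to 33525 at CT48, against 45829 to 48695 at CT28. At CT24 they summed to 30749 to 35228, against 39511 to 41627 at CT0, while the sum of the 10 pathway genes was 20008 to 20676 at CT24, against 19008 to 20452 at CT0. The 10 genes summed to 21317 to 23136 at CT48, against 17527 to 19117 at CT28.

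Single libraries tended to be high or low for several of the 10 genes at once. Replicate 2 of CT40 was the highest of its time point for 8 of the 10, and replicate 4 of CT8 for 7. Replicate 1 was the lowest for 8 of the 10 at each of CT0, CT12 and CT16. Replicate 4 of CT12, 1 of the 2 libraries with another ID prefix in the labels, was highest for 7. Without those 2 libraries the any-difference call of Sox8 in CT28 to CT48 was lost (adjusted p = 0.0638, limma), and the other calls of the 10 genes held.

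The likeness of time courses was described over the 13 time-point means, each centred on the mean of its span. The 5 genes most like Ret, of 12394, were Zc3h7b with a Pearson correlation of 0.96, Rxra with 0.95, Dctn1 with 0.95, Col13a1 with 0.95 and Pear1 with 0.93. Within the pathway Etv5 and Etv4 were closest to Ret, with 0.86 each, ranking 218 and 295 of 12658 genes. Sox9 had 0.82, Gfra1 0.78, Spry1 0.75, Wnt11 0.59, Sox8 0.32, Gdnf 0.22 and Wnt9b 0.12. The genes most like Gdnf were Tomm40 with 0.89, Mkl1 with 0.84, Foxp4 with 0.84, Tmtc2 with 0.80 and Ccdc102a with 0.80. These points share the libraries and the low values of CT28 and CT32.

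In the GENCODE M21 annotation of GRCm38 all 10 are protein-coding genes. Ret (ENSMUSG00000030110.13) lies on chromosome 6, 118151745 to 118197718, minus strand, Gfra1 (ENSMUSG00000025089.15) on chromosome 19, 58235604 to 58455909, minus strand, and Gdnf (ENSMUSG00000022144.4) on chromosome 15, 7810846 to 7837575, plus strand. Spry1 (ENSMUSG00000037211.12) lies on chromosome 3, 37639947 to 37644598, plus strand, and Etv5 (ENSMUSG00000013089.15) on chromosome 16, 22381309 to 22439719, minus strand. Etv4, Wnt9b and Sox9 are all on chromosome 11.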

How the data were processed

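Poly-A RNA of fetal mouse kidneys was made into TruSeq libraries and sequenced on HiSeq instruments, per the labels' protocols. The submitters' processing notes name mm10, bcl2fastq, STAR 2.5.2b as well as featureCounts 1.5.0-p3. Annotation, strand setting and normalisation were not given in the sources used here. Overlapping genes are therefore uncertain.

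Although its name speaks of counts, the expression table the authors deposited holds a score, namely whole numbers normalised before rounding, which was read from library totals of 34226024 to 35711911 and upper quartiles of 2375 to 2425.5. Depth is unknown, so only the spread between libraries shows precision. A second table the authors deposited holds p-values and q-values of rhythm tests (JTK, Lomb-Scargle and the combined one), with period and amplitude scores, per the file headers.

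The members and the lists were chosen with earlier results of these data known. The planned count test did not suit this unit. All models used log2(value + 1) in limma 3.58.1 (R 4.3.3), a scale that understates changes of low genes, with mean trend and robust moderation, over 14426 genes with a mean of at least 10. Adjusted p is Benjamini-Hochberg over all tested genes, two-sided, with a threshold of 0.05. CT0 to CT24 and CT28 to CT48 were fitted apart, since the median SD within time points was 0.14 log2 units in CT28 to CT48 and 0.07 in CT0 to CT24. The rhythm and the slope difference used all 51 libraries, weighted by span. Named genes of a list are the 4 or fewer with the largest change past the threshold. Some genes of the lists are not reported here. No 2 libraries were identical. Scripts were tested on simulated data. Promoter sequences are from RefSeq, GRCm38.p6. Alternatives were another filter, pseudocount and scaling, 1 joint fit, time-point means, a replicate block, and leaving out libraries or times.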

Additional observations from a re-analysis of the deposited data

Results flagged for a closer look

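In 120 groups of 4 libraries, 1 group a gene and time point, 5 had a library far from the other 3, and chance gives about 1 in 20, or 6. Gfra1 had 4213 normalised values in replicate 4 of CT8, the highest there. Etv4 had 1926 in replicate 4 of CT48, the lowest, Spry1 had 4376 in replicate 4 of CT0, the highest, and Sox8 had 81 in replicate 2 of CT8 and 87 in replicate 1 of CT16, both the lowest.

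The slope over CT28 to CT48 differed from the slope over CT0 to CT24 in 8 of the 10 genes by a test of the difference itself. The difference, in log2 units per 24 h, was 0.30 for Ret, 0.53 for Gfra1, 0.48 for Etv4, 0.54 for Etv5, 0.70 for Spry1, 0.64 for Sox8, 0.54 for Sox9 and -0.41 for Wnt9b. Of all genes tested, 51.4% passed, and without CT28 and CT32 none of the 10 did (3 at an unadjusted p under 0.05), with 756 of all genes still past the threshold in limma.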

How the results depend on the processing

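Over the alternatives, 1212 values of single genes kept their direction and side of the threshold, 92 no longer passed, 23 newly passed and 23 turned direction. In 1 fit of all 51 libraries, CT24 against CT0 called 0 of the 10 genes and 1443 of all genes (60.4% of calls higher), in place of 2 and 3832 (54%), the CT0 to CT24 slope 0 and 736 (83% higher) in place of 2 and 3310 (56.4%), and any difference in CT0 to CT24 0 and 1345 in place of 3 and 6277. With time-point means as the unit, that slope called 1 and 768 (86.1% higher) and the CT28 to CT48 slope 5438 of all genes in place of 8561. The rhythm then called 0 and 0 (533 of all genes at an unadjusted p under 0.05, limma) and the slope difference 5 of the 10 in place of 8. For that difference the main fit called 7411 of all genes, and the count of all genes with those means is not reported here. With those means the CT28 to CT48 slopes of Ret (adjusted p = 0.0637, limma) and Sox8 (0.141) did not pass. Nor did the CT0 to CT24 slope of Spry1 (0.0505). Without CT0 or CT24 the first slope called 1887 and 1300 of all genes. Without CT28 and CT32 the second slope called 1 and 1074, any difference 2 and 3177 in place of 7 and 9332, and the slope difference 0 and 756 in place of 8 and 7411. Without weights the rhythm called 2 and 1773 in place of 1 and 2921. The cause was not tested.

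Leaving out libraries gave 0 to 3 of the 10 genes and 1988 to 3649 of all genes for CT24 against CT0, 3 to 7 and 2714 to 5155 for CT36 against CT32, and 3 to 6 and 6638 to 7590 for CT48 against CT28. It gave 2 to 3 and 1599 to 2880 for the first slope, 1 to 4 and 2397 to 5479 for any difference in CT0 to CT24, and 0 to 3 and 1099 to 2275 for the rhythm.

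Directions that turned belonged to values that did not pass in the main fits, near 0 there but for the second slope of Wnt9b (-0.17). They were Etv5 (-0.00516) and Sox8 (-0.0271) under quantile scaling for CT24 against CT0, Sox8 (0.0472) without the libraries of another ID prefix for CT36 against CT32, and in the first slope Gfra1 (0.0315) without CT0 and Sox8 (0.0477) without CT4. In the second slope they were Gdnf (0.0228 under quantile scaling, 0.0641 without CT48) and Wnt9b (0.106 without CT48), and in the slope difference Gdnf (-0.0237 without CT28 and CT32). Leaving out libraries gave values of -0.00544 to 0.0904 for Ret, -0.0135 to 0.0477 for Etv5 and -0.0105 to 0.134 for Sox8 in CT24 against CT0. It gave -0.163 to 0.154 for Sox8 in CT36 against CT32, -0.00961 to 0.185 for Wnt11 in CT48 against CT28, -0.0886 to 0.00875 for Gdnf in the second slope and -0.0467 to 0.179 for Gdnf in the slope difference.

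What libraries with 1 replicate number share is not given by the labels, and correlations cannot settle it. Same-numbered pairs had correlations of -0.09 to 0.15 (median 0.00) in CT28 to CT48, against a median of -0.01 for other pairs. In CT0 to CT24 they had -0.30 to 0.38 (median 0.04), against a median of -0.01 for other pairs. Of 51 libraries, 19 correlated best with their own number. With the replicate block Etv5 was added to the calls of the rhythm (adjusted p = 0.0426, limma) and of any difference in CT0 to CT24 (0.0471). CT48 against CT28 then called 6 of the 10 genes, Wnt9b lost (adjusted p = 0.0512, limma), and 7878 of all genes in place of 7769.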
